A study of Mus musculus with 22 samples.

Results

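The receptors for dopamine and noradrenaline were examined in the anterior cingulate cortex (ACC) of mice whose amygdala input to this area had been activated repeatedly by light. The set held 10 genes, taken by name from the 37786 genes of the count table: the D1-like receptors Drd1 and Drd5, the D2-like receptors Drd2 and Drd4, the alpha-1 adrenoceptors Adra1a, Adra1b and Adra1d, the alpha-2 adrenoceptors Adra2a and Adra2c, and the beta adrenoceptor Adrb1. All 10 passed the count minimum (at least 10 counts in at least 10 mice) and were tested among 17524 genes. RNA was sequenced from bulk ACC of 12 control and 10 stimulated mice, all of them adult wildtype C57BL/6J males. Each mouse, control or stimulated, carried an AAV5 vector that made channelrhodopsin-2 and EYFP under the CaMKIIa promoter in the basolateral amygdala (BLA), and an optic fiber in the ACC. In stimulated mice blue light reached the BLA terminals in the ACC over 9 sessions, whereas controls went through the sessions with the light off. The promoter directs expression mainly to excitatory projection neurons, the fiber was implanted on one side, and the ACC of both sides was dissected, so that each library mixes all cell types of the tissue.

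Dopamine and noradrenaline reach the cingulate cortex in axons from the midbrain and the locus coeruleus, and act there on G protein-coupled receptors. D1-like receptors and beta adrenoceptors couple to Gs/olf proteins and raise cAMP, D2-like receptors and alpha-2 adrenoceptors couple to Gi/o proteins and lower it, and alpha-1 adrenoceptors couple to Gq proteins and activate phospholipase C. Both transmitters are known to modulate arousal, attention and the affective side of pain in frontal cortex.

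Promoter sequence is shown for Adra1b and Drd4, the 2 members with the smallest P values between groups in the fit that also held the run of library numbers. RefSeq (GRCm38.p6) listed a promoter for 8 of the 10 genes, in 10 windows of 250 bases before a transcription start. Adra1b and Drd1 had 2 starts each. The windows were searched on both strands for the cAMP response element TGACGTCA, its half-site TGACG, the GC box GGGCGG, the Egr1 element GCGTGGGCG, the AP-1 site TGANTCA, the TATA box TATAAA and the CCAAT box CCAAT. Capitals mark every match, and the sequences read 5′ to 3′ on the strand of the gene.
Adra1b, outer start, chr11:43901238-43901487, minus strand: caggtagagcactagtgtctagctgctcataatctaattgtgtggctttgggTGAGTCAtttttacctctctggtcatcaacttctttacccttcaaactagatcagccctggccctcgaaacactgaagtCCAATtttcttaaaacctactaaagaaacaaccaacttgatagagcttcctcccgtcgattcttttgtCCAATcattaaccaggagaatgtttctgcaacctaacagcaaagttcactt
Adra1b, inner start, chr11:43836490-43836739, minus strand: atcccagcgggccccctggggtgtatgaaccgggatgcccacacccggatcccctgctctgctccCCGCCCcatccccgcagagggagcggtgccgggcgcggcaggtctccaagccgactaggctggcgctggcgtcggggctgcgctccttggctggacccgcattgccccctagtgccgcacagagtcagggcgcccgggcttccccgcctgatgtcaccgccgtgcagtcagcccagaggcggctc
Drd4, chr7:141291768-141292017, plus strand: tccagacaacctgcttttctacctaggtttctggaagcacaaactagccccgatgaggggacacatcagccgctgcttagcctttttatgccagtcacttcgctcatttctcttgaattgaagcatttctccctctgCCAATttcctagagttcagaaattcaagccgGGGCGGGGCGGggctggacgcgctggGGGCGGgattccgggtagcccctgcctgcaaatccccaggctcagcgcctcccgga

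The windows of the 2 Adra1b starts differed in base composition. The outer one had a GC content of 41.6% and the inner one 72.8%, beside a median of 52.4% over 32851 mouse promoters, and that of Drd4 had 56.8%. Counted back from the start, the outer Adra1b window held an AP-1 site at position -198 and CCAAT boxes at -119 and -51, and the inner one held a single GC box at -185, read on the opposite strand. Drd4 held a CCAAT box at -113 and GC boxes at -82, -77 and -56, of which the first pair share 1 base. Of the promoters of all genes, 6.75% had an AP-1 site, 33.8% a CCAAT box and 32.7% a GC box. The full cAMP response element (1.55% of all promoters) and the Egr1 element (0.536%) had no match in any member window. The half-site (17.8%) was found at -69 of Adra2a and -90 of Adrb1, and the TATA box (12.4%) at -29 of Adra2a. These are matches of letters within 250 bases and no measurement of binding.

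The libraries held 23090483 to 43668462 counts each. Their numbers in the labels formed a pair of runs, 1 to 11 (6 controls, 4 stimulated mice) and 12 to 23 (6 controls, 6 stimulated mice), which are not stated to be the 2 animal batches of the study. With group in the fit, 68.1% of all genes differed between these runs at an adjusted P under 0.05 (edgeR). Mitochondrial genes took 1.63 to 4.81% of counts in the first run and 0.982 to 1.90% in the second. The 3 markers of the excitatory neurons of cortex, Slc17a7 and Neurod2 among them, were abundant, with a summed level of 1221 to 2923 CPM (counts scaled to library size with TMM) in controls and 1463 to 3107 CPM in stimulated mice. All 5 oligodendrocyte markers were lower in stimulated mice, at unadjusted P values of 0.00649 (Mobp) to 0.0352 (Mag) in the fit with group only, where 3.61% of all genes had an unadjusted P under 0.05, and their sum was 2902 to 18182 CPM in controls and 2113 to 5417 CPM in stimulated mice. Choroid plexus markers summed to 3.69 to 133 CPM in controls and 5.35 to 16.8 CPM in stimulated mice. No marker of these lists had a median count of 0.

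Levels of the receptors were compared with each other per kilobase of exon (RPKM, from TMM-scaled counts). Averaged over the 22 mice, the most abundant were Adra2c at 11.3 ± 1.4 RPKM (SD), Adra1b at 10.9 ± 1.7 and Adrb1 at 9.60 ± 1.19. A second tier was formed by Adra1d at 5.46 ± 1.42 RPKM and Drd1 at 5.17 ± 1.1, followed by Adra2a at 1.91 ± 0.44 and Adra1a at 1.47 ± 0.28. The other dopamine receptors had the lowest levels, with Drd2 at 0.650 ± 0.334 RPKM, Drd5 at 0.478 ± 0.192 and Drd4 at 0.203 ± 0.130.

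Not every neighbour in this order could be separated. Adra2c exceeded Adra1b in 12 of 22 mice, Adra1b exceeded Adrb1 in 15, and Adra1d exceeded Drd1 in 12. Within the upper and the second tier the mean order changed with the run of library numbers. In 1 to 11, Adra2c averaged 12.2 RPKM, Adrb1 9.91, Adra1b 9.73, Drd1 4.88 and Adra1d 4.28. In 12 to 23, Adra1b averaged 11.8 RPKM, Adra2c 10.6, Adrb1 9.34, Adra1d 6.44 and Drd1 5.41. Adra2c lay above Adra1b in every mouse of library numbers 1 to 11. By contrast, Adrb1 exceeded Adra1d and Drd1 exceeded Adra2a in 22 of 22 mice each. Adra2a exceeded Adra1a in 17 mice, Adra1a exceeded Drd2 in 21, Drd2 exceeded Drd5 in 16 and Drd5 exceeded Drd4 in 19. Adra1a moved from 1.47 to 3.00 RPKM, and above Adra2a, when its longest transcript was used in place of all its exons.

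**Figure D1:**
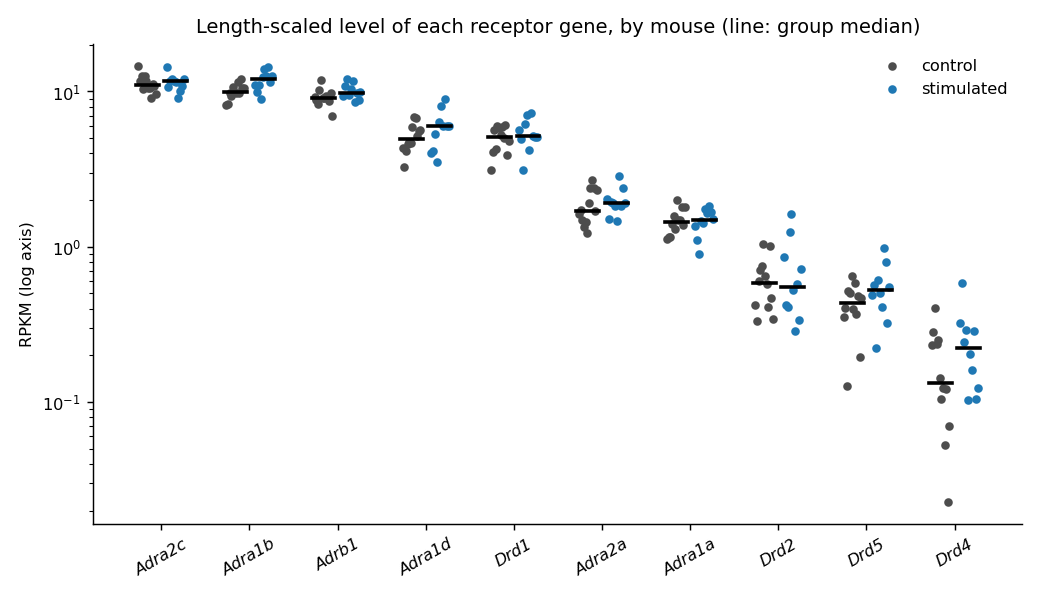
Length-scaled level (RPKM, log axis) of the 10 receptor genes in each mouse, ordered by mean, with controls in grey, stimulated mice in blue and a line at each group median. Adra2c, Adra1b and Adrb1 lie near 10 RPKM, and Drd4 reaches down to 0.0227 RPKM in 1 control.

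Within each receptor family 1 gene supplied most of the length-scaled RNA. Drd1 made up 80.7 ± 3.8% of the summed dopamine receptor RPKM in controls (SD, n = 12) and 78.5 ± 3.9% in stimulated mice (n = 10). Adra1b made up 60.6 ± 3.5% of the alpha-1 sum in controls and 62.3 ± 3.1% in stimulated mice, and Adra2c 85.7 ± 4.4% and 85.2 ± 3.7% of the alpha-2 sum. These shares differed between groups by less than 1 SD of the mice.

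Whether repeated activation of the pathway altered these receptors was asked with edgeR's quasi-likelihood test, with group as the only term. No receptor gene passed the threshold: each of the 10 had a Benjamini-Hochberg adjusted P of 0.9998. At an unadjusted P under 0.05, 1 of the 10 differed, Adra1b, against a background of 3.61% of all genes (632 of 17524), and 0 genes of the whole table had an adjusted P under 0.05 (3 in DESeq2's Wald test, 0 with limma voom). Of the receptors, 9 were higher in stimulated mice and Adra1a was lower. The median over the 10 was a log2 fold change of 0.16, whereas 52.5% of all genes were higher, at a median of 0.01. When the run of library numbers was added to the fit (hereafter the fit with run), the same 9 were higher, beside 52.6% of all genes. In that fit 2 members, Adra1b and Drd4, had an unadjusted P under 0.05, against 11.5% of all genes, and their smallest adjusted P was 0.329. In every one of the 10 genes the range of stimulated mice overlapped that of controls. In bulk tissue, a change in the number of cells that make a receptor and a change in RNA per cell cannot be told apart.

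**Figure D2:**
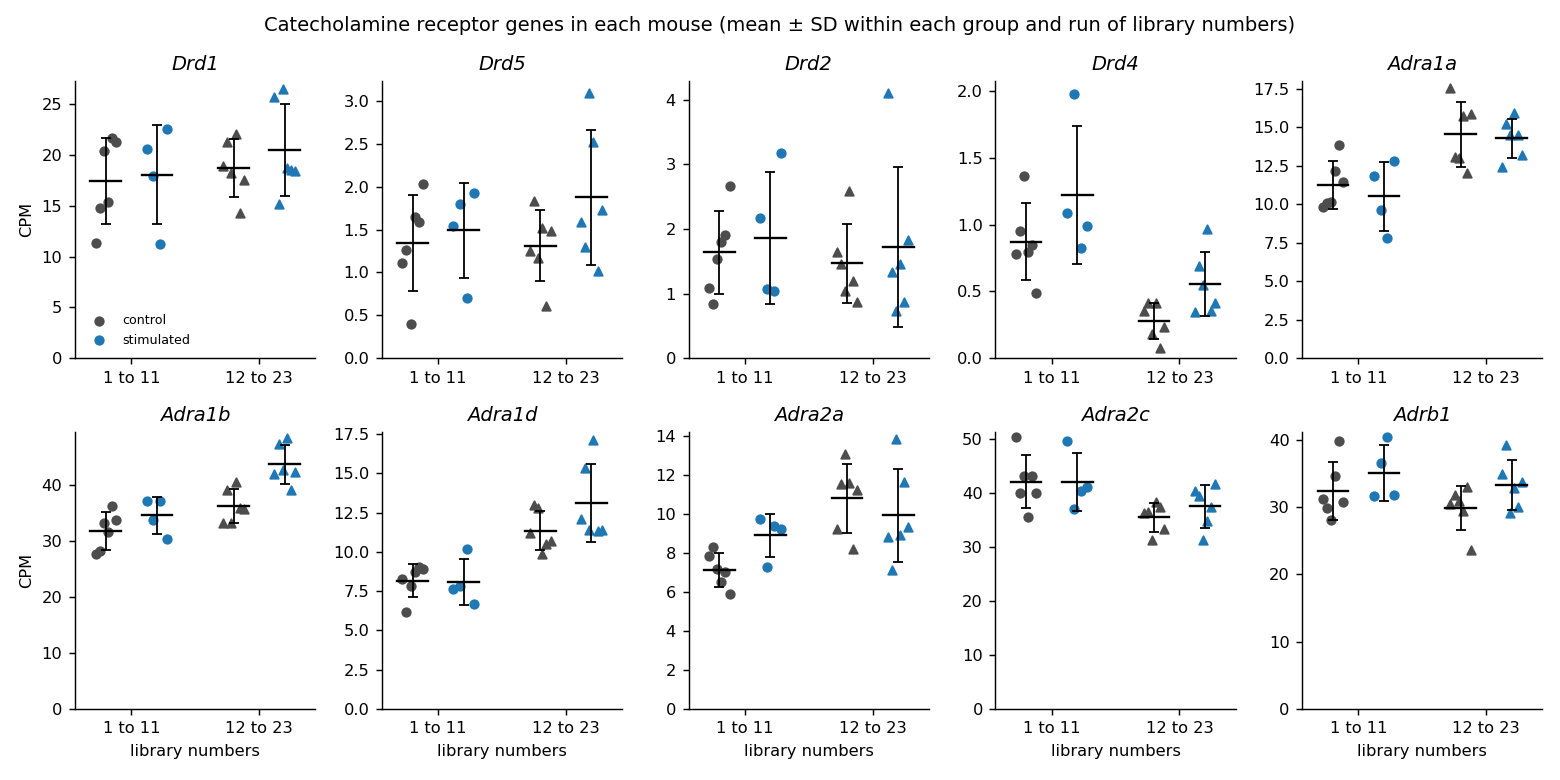
Level of each receptor gene (CPM, linear axes that start at 0) in the 22 mice, controls in grey and stimulated mice in blue, split by the runs of library numbers 1 to 11 (circles) and 12 to 23 (triangles), with the mean ± SD of each set. Adra1b in library numbers 12 to 23 averages 43.7 CPM in stimulated mice and 36.3 CPM in controls, and Drd4 sits lower in that run in both groups.

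**Figure D3:**
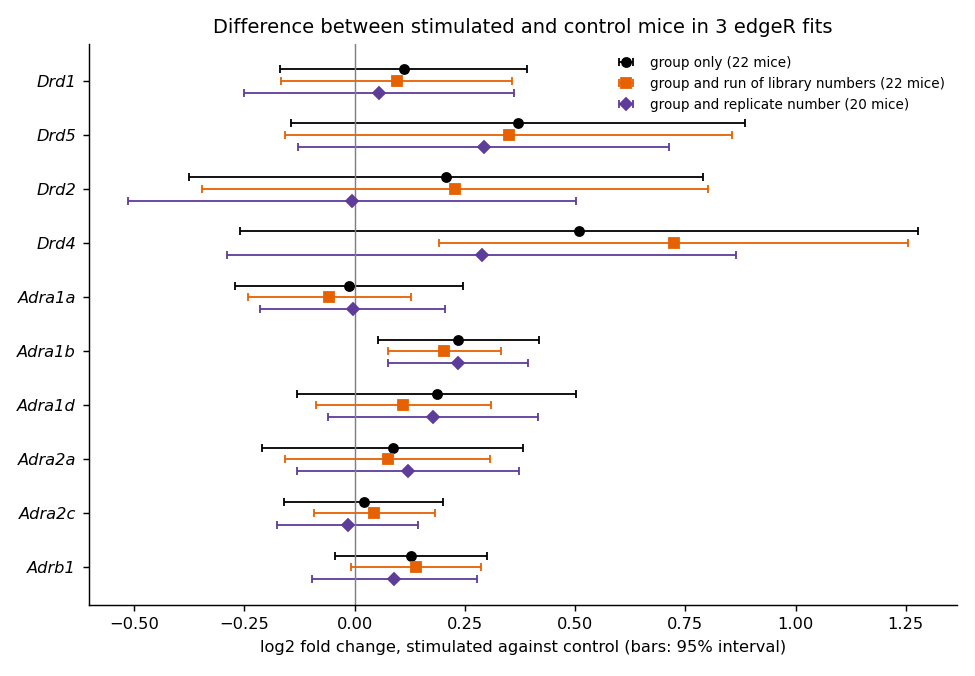
Log2 fold change, stimulated against control, of each receptor gene with its 95% interval in 3 edgeR fits: group only, group with the run of library numbers, and group with the replicate number over 20 mice. The interval of Adra1b lies above 0 in all 3 fits, that of Drd4 only in the fit with the run.

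Drd1, the principal D1-like receptor of the forebrain, ranged from 11.4 to 22.1 CPM in controls (median 18.6, n = 12) and from 11.3 to 26.5 CPM in stimulated mice (median 18.6, n = 10). The medians coincided, and 3 stimulated mice lay above all controls while 1 lay below them. Between groups the log2 fold change was 0.11 (SE 0.14, 95% interval -0.17 to 0.39, P = 0.421). Drd5, which also raises cAMP and is known for its high dopamine affinity, ranged from 0.398 to 2.03 CPM in controls (median 1.38) and from 0.699 to 3.10 CPM in stimulated mice (median 1.66). Its counts were low, 14 to 80 per mouse, and 7 of 10 stimulated mice lay above the control median, 2 of them above all controls. For Drd5 the log2 fold change was 0.37 (SE 0.25, interval -0.14 to 0.89, P = 0.149), and 0.35 with the run of library numbers (P = 0.168). Neither D1-like gene therefore differed beyond the spread of the mice. Drd5 (chr5:38319367-38322518, plus strand) shares 1531 of its 3152 exon bases with Gm26560 on the opposite strand, and its counts are uncertain to that extent because the strand setting of the counting is not given in the sources used here.

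Drd2, the target of antipsychotic drugs and also a receptor on dopamine terminals, ranged from 0.845 to 2.66 CPM in controls (median 1.496) and from 0.729 to 4.11 CPM in stimulated mice (median 1.40). Stimulated mice 4 and 5, at 3.18 and 4.11 CPM, lay above all controls and stimulated mouse 7, at 0.729 CPM, below them, and the stimulated median was the lower one. Its log2 fold change was 0.21 (SE 0.28, P = 0.471), and it was -0.02 without stimulated mouse 5, so the sign of this difference rested on 1 library.

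Drd4, a D2-like receptor known from the frontal cortex, was the least abundant member, at 2 to 85 counts per mouse. It ranged from 0.0766 to 1.36 CPM in controls (median 0.451) and from 0.347 to 1.98 CPM in stimulated mice (median 0.758). Over all mice its log2 fold change was 0.51 (SE 0.37, P = 0.185). Much of the spread lay between the runs of library numbers, whose values did not overlap among controls. In library numbers 1 to 11 controls ranged from 0.486 to 1.36 CPM (median 0.822), and the 4 stimulated mice were at 1.09, 1.98, 0.828 and 0.988 CPM. In library numbers 12 to 23 controls ranged from 0.0766 to 0.416 CPM (median 0.294) and stimulated mice from 0.347 to 0.964 CPM (median 0.482). All 4 and all 6 stimulated mice lay above the control median of their own run, and 4 of the 6 above every control of it. The lowest of those 4, stimulated mouse 10, had 13 counts (0.417 CPM) beside 12 counts (0.416 CPM) in control 8. With DESeq2 size factors it lay below that control (0.413 and 0.419 CPM).

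In the fit with run the log2 fold change of Drd4 was 0.72 (SE 0.26, 95% interval 0.19 to 1.26, unadjusted P = 0.00963, adjusted P = 0.349, edgeR). An exact two-sided permutation test within runs (194040 relabellings) gave a difference of 0.69 in mean log2 CPM and P = 0.00754, unadjusted over 10 genes. Within library numbers 1 to 11 the log2 fold change was 0.50 (P = 0.150) and within 12 to 23 it was 0.95 (P = 0.0277). Of all genes 5.56% and 12.4% had an unadjusted P under 0.05 within these runs. In a separate fit of all 22 mice with a term for group by run, the difference between the runs' effects was not detectable (0.50, SE 0.51, P = 0.346). Leaving out stimulated mouse 2, the highest at 85 counts, gave 0.60 with the run and 0.26 without it. The controls of the second run rested on 2 to 12 counts each.

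Adra1b, the most abundant of the Gq-coupled alpha-1 adrenoceptors here (chr11:43774606-43901210, minus strand), was the member with the smallest P value. Its level ranged from 27.6 to 40.5 CPM in controls (median 33.5) and from 30.3 to 48.5 CPM in stimulated mice (median 40.6). Of the 10 stimulated mice 9 lay above the control median and 5 above all controls. The log2 fold change was 0.24 (SE 0.09, 95% interval 0.05 to 0.42, unadjusted P = 0.0137, adjusted P = 0.9998, edgeR). This was the only member that differed in the group-only test, and it did not pass the adjustment.

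Within library numbers 1 to 11, Adra1b ranged from 27.6 to 36.3 CPM in controls (median 32.4), and the stimulated mice were at 37.2, 33.7, 37.1 and 30.3 CPM. There the log2 fold change was 0.13 (SE 0.10, P = 0.201). Within library numbers 12 to 23 controls ranged from 33.2 to 40.5 CPM (median 35.8) and stimulated mice from 39.2 to 48.5 CPM (median 42.5), with 5 of 6 above all controls. In that run the log2 fold change was 0.24 (SE 0.08, edgeR unadjusted P = 0.00751), and the exact permutation test gave P = 0.00433. The smallest adjusted P of the members there was 0.281, and 12.4% of all genes had an unadjusted P under 0.05. In the fit of all mice with a group by run term the effects in the 2 runs did not differ detectably (difference 0.15, SE 0.12, P = 0.239). In the fit with run the log2 fold change of Adra1b was 0.20 (SE 0.06, interval 0.08 to 0.33, unadjusted P = 0.00307, adjusted P = 0.329), and the exact permutation test within runs gave 0.20 and P = 0.00300. Each of the 22 fits with group only that left out 1 mouse gave a log2 fold change of 0.20 to 0.27. With the run in these fits it was 0.18 to 0.23.

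Markers of excitatory neurons were also higher in stimulated mice, 3 of 3, and 2 of them had an unadjusted P under 0.05 in the fit with run: Slc17a7, a vesicular glutamate transporter (log2 fold change 0.16, P = 0.0177), and the neuronal transcription factor Neurod2 (0.23, P = 0.00820), beside 6.05% of all genes that were higher at this level. Within library numbers 12 to 23 their sum was 2205 to 2923 CPM in controls and 2739 to 3107 CPM in stimulated mice. Across mice, Slc17a7 was the marker whose pattern was most like that of Adra1b (cosine 0.71 after centring within group and run). The part of these markers in the Adra1b difference was not tested.

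For the other alpha-1 genes the edgeR test with group only found no difference beyond the spread of the mice. Adra1a ranged from 9.84 to 17.5 CPM in controls (median 12.6) and from 7.82 to 15.9 CPM in stimulated mice (median 13.0), with a log2 fold change of -0.01 (SE 0.13, 95% interval -0.27 to 0.24, P = 0.917). Adra1d ranged from 6.20 to 13.0 CPM in controls (median 9.45) and from 6.70 to 17.1 CPM in stimulated mice (median 11.4), with a log2 fold change of 0.19 (SE 0.15, P = 0.236). Both groups of Adra1d spanned nearly the same range up to the 2 highest stimulated mice. In the fit with run Adra1d was at 0.11 (P = 0.264), and within library numbers 1 to 11 its P was 0.992. Within library numbers 12 to 23 its log2 fold change was 0.17 (SE 0.12, P = 0.184, exact permutation P = 0.143), with all 6 stimulated mice above the control median and 2 above all controls. With limma voom over all mice, Adra1d had a log2 fold change of 0.33 (SE 0.14, unadjusted P = 0.0311, adjusted P = 0.435). Adra1d (chr2:131545850-131562283, minus strand) shares 147 of its 1899 exon bases with Gm14285 on the opposite strand.

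Adra2a, the alpha-2 adrenoceptor through which guanfacine acts in the prefrontal cortex, ranged from 5.89 to 13.1 CPM in controls (median 8.23) and from 7.10 to 13.8 CPM in stimulated mice (median 9.25). Its log2 fold change was 0.09 (SE 0.14, P = 0.553), but the 2 runs gave opposite signs. In library numbers 1 to 11 controls ranged from 5.89 to 8.27 CPM, and the stimulated mice were at 9.75, 7.29, 9.37 and 9.21 CPM. All 4 were above the control median, 3 of them above all controls, and the log2 fold change was 0.34 (SE 0.13, P = 0.0241, exact permutation P = 0.0286). In library numbers 12 to 23 controls ranged from 8.19 to 13.1 CPM (median 11.4) and stimulated mice from 7.10 to 13.8 CPM (median 9.10), at a log2 fold change of -0.16 (SE 0.16, P = 0.333). Estimated in the fit of all mice with a group by run term, the difference between the runs' effects was -0.45 (SE 0.21, 95% interval -0.89 to -0.01, unadjusted P = 0.0448, adjusted P = 0.614), beside 8.01% of all genes at an unadjusted P below 0.05.

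Adra2c, the more abundant alpha-2 gene per length in every mouse, ranged from 31.2 to 50.4 CPM in controls (median 37.8) and from 31.3 to 49.7 CPM in stimulated mice (median 40.0). The ranges were nearly identical. The log2 fold change was 0.02 (SE 0.09, 95% interval -0.16 to 0.20, P = 0.818), and 0.04 with the run of library numbers (P = 0.511). Adra2c and Adra1a were thus the members with the smallest differences between groups in the test with group only.

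Adrb1, the Gs-coupled beta-1 adrenoceptor, ranged from 23.7 to 39.9 CPM in controls (median 30.8) and from 29.1 to 40.4 CPM in stimulated mice (median 33.3). Of the stimulated mice 8 of 10 lay above the control median, but only 1 lay above all controls. The log2 fold change was 0.13 (SE 0.08, P = 0.137), and 0.14 with the run (SE 0.07, 95% interval -0.01 to 0.29, P = 0.0648, exact permutation P = 0.0624). It was 0.13 within library numbers 1 to 11 and 0.12 within 12 to 23. Without control 5 it had an unadjusted P of 0.0484 in the group-only fit, with a log2 fold change of 0.17.

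More receptors differed between the runs of library numbers than between the groups. With group in the fit, 6 of the 10 had an adjusted P under 0.05, beside 68.1% of all genes. Levels in library numbers 12 to 23 were higher than in 1 to 11 for Adra1d (log2 difference 0.57, SE 0.10, adjusted P = 1.02e-05), Adra1a (0.40, SE 0.09), Adra2a (0.40, SE 0.11) and Adra1b (0.26, SE 0.06). They were lower for Drd4 (-1.40, SE 0.26, adjusted P = 3.24e-05) and Adra2c (-0.21, SE 0.07, adjusted P = 0.00715). Drd4 had 17 to 85 counts (0.486 to 1.98 CPM) in the first run and 2 to 29 counts (0.0766 to 0.964 CPM) in the second, and Adra2c 35.6 to 50.4 and 31.2 to 41.7 CPM. For Drd1, Drd5, Drd2 and Adrb1 the log2 difference was between -0.13 and 0.14 and did not pass the test. In the 12 controls alone the difference was -1.64 for Drd4 (SE 0.37, adjusted P = 0.00114), 0.60 for Adra2a (SE 0.13) and 0.19 for Adra1b (SE 0.09, adjusted P = 0.0757).

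**Figure D4:**
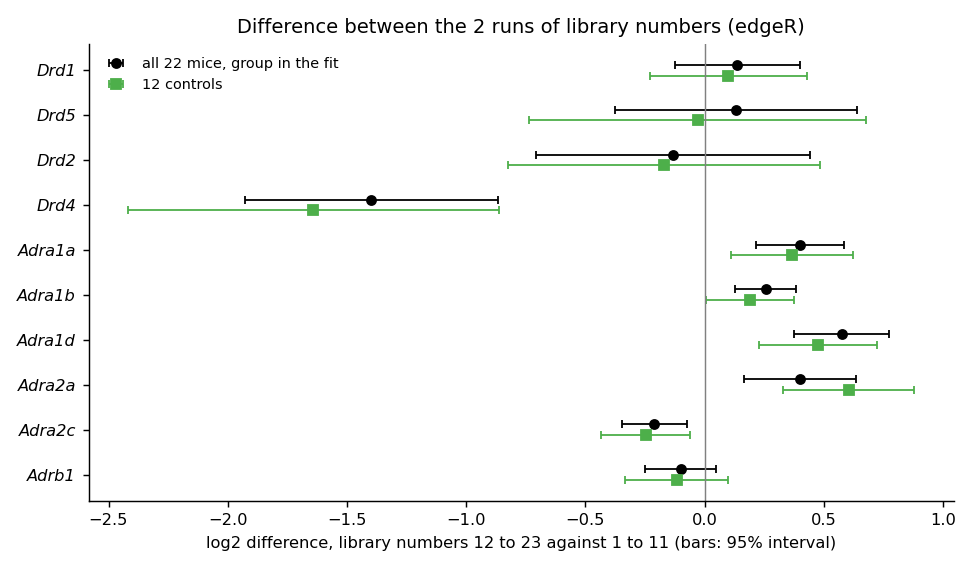
Log2 difference of each receptor gene between library numbers 12 to 23 and 1 to 11, with its 95% interval, in all 22 mice with group in the fit (black) and in the 12 controls (green). Drd4 lies far to the left at -1.40 and -1.64, and the 3 alpha-1 genes and Adra2a lie to the right of 0 in both.

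Genes whose level varied most like each receptor from mouse to mouse were found by the cosine between log2 CPM values centred within group and run, over 22 mice and all 17524 genes. The values describe the highest of many candidates, and the genes compared come from the same libraries. Drd1 was most like Lmo3 (0.87), Pth2r (0.87) and Sla (0.86), and among the marker lists like Syt6 of layer 6 (0.82) and Rgs9 of striatal projection neurons (0.80). Striatal markers summed to 151 to 199 CPM in controls and 148 to 229 CPM in stimulated mice, with 5 of the 8 tested members higher in stimulated mice, and their part in the Drd1 values was not tested. Drd5 was most like Tab3 (0.81), Scml4 and Erich3, and among markers like Foxp2 of layer 6 (0.71). Drd2 was most like Cgref1 (0.82), Ramp3 and Arhgef28, and among markers like Rgs9 (0.67). For these 3 dopamine receptors the closest marker thus belonged to deep cortical layers or to striatal neurons. Drd4, at its low counts, reached only 0.69, with Cdk8, Chm and Fam69a.

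Among adrenoceptors, Adra1b was most like Slc24a3 (0.87), Slitrk3 (0.84) and Syp (0.82), the last of which encodes the synaptic vesicle protein synaptophysin. Adra1d was most like Lpcat4 (0.89), Ggt7 (0.88) and Otud3 (0.84), and Adra1a like C530050E15Rik (0.79), Tmem131l and Armcx4. Adra2a was most like Foxc2 (0.84), Cxcl16 and Serpind1, and its closest markers were Ctgf (0.68), a gene of the deepest cortical layer, and the choroid plexus markers Aqp1 (0.51) and Kl (0.47). Other markers of these lists were less alike, with Cplx3 (0.18) and Tle4 (0.09) of layer 6 and Ttr (-0.17) of choroid plexus. Adra2c was most like Agap3, Anapc5 and Ssbp3 (each 0.84), and Adrb1 like Taf3 (0.79), Ier5l and Fmnl1. Between members the highest cosines were those of Adra1b with Adra1d (0.56), Adra1d with Adrb1 (0.54) and Drd1 with Drd2 (0.53), and the lowest was that of Adra2a with Adrb1 (-0.50). When values were not centred within group and run, only 4 of the most similar genes (3 for each of the 10 members) were found again. They were Sla, Scml4, Fam69a and Tmem131l, and the others changed with the centring.

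The receptors act within a larger pathway, for which a list of 55 genes was used, of which 50 were tested. Genes at 0 to 37 counts were below the minimum: the receptors Drd3 (0 to 3 counts) and Adra2b, the adrenaline-forming enzyme Pnmt, and the noradrenaline and dopamine transporters Slc6a2 (0 to 4 counts) and Slc6a3, which are made in cell bodies outside the cortex. In the group-only test 40 of the 50 were higher and 10 lower in stimulated mice, beside 52.5% of all genes that were higher, at a median of 0.09 on the log2 scale, and 0 passed the adjustment. At an unadjusted P under 0.05 there was 1 higher gene and 1 lower gene, a number near the background of 3.61% of all genes. The higher one, Slc22a3, encodes a low-affinity transporter that takes up monoamines (median 0.996 CPM in controls and 1.52 CPM in stimulated mice, log2 fold change 0.58, SE 0.22, P = 0.0149). The lower one, Ddc, encodes the decarboxylase that forms dopamine from L-DOPA (9.25 and 7.56 CPM, -0.42, SE 0.17, P = 0.0194).

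In the fit with run, 8 pathway genes were higher and 2 lower at an unadjusted P under 0.05, where 6.05% of all genes were higher and 5.45% lower. Slc22a3 (0.63, P = 0.00660) and Ddc (-0.42, P = 0.0137) were again among them. Genes downstream of the receptors were Gnas, which encodes the Gs alpha subunit (0.20, P = 0.00234), Gnal, the olfactory form of it (0.14, P = 0.0219), and the phosphodiesterase gene Pde1b (0.18, P = 0.0266), all of them higher, and the calcium-stimulated adenylyl cyclase gene Adcy1, which was lower (-0.17, P = 0.0374). Genes of receptor regulation were Rgs2 (0.24, P = 0.00717) and Rgs14 (0.23, P = 0.0187), which act on G protein alpha subunits, and Caly (0.24, P = 0.0112), which encodes a vesicle trafficking protein of neurons. The smallest adjusted P in the list was 0.325 (edgeR). The Gnas locus holds overlapping transcripts of other genes, so that its counts are uncertain.

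Groups of the list without any gene at an unadjusted P under 0.05 in both fits were the other receptors, among which Adrb3 had a log2 fold change of 0.13 (P = 0.357) with group only. In the synthesis group, Th, the enzyme that begins catecholamine synthesis, varied from 38 to 1025 counts between mice and had a median of 4.86 CPM in controls and 4.29 CPM in stimulated mice. Its log2 fold change was 0.32 (P = 0.382) with all mice and -0.17 (P = 0.564) without stimulated mouse 2, so its sign rested on 1 library. Dbh, which forms noradrenaline, had 3 to 21 counts. The monoamine oxidase genes Maoa (P = 0.989) and Maob (-0.13, P = 0.223) did not differ beyond the spread. Within library numbers 1 to 11, 23 of the 50 genes were higher and 27 lower, and within 12 to 23, 35 were higher and 15 lower. Of all genes, 48.8% were lower within 1 to 11 and 50% within 12 to 23. The difference in pathway counts between the runs was not tested.

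**Figure D5:**
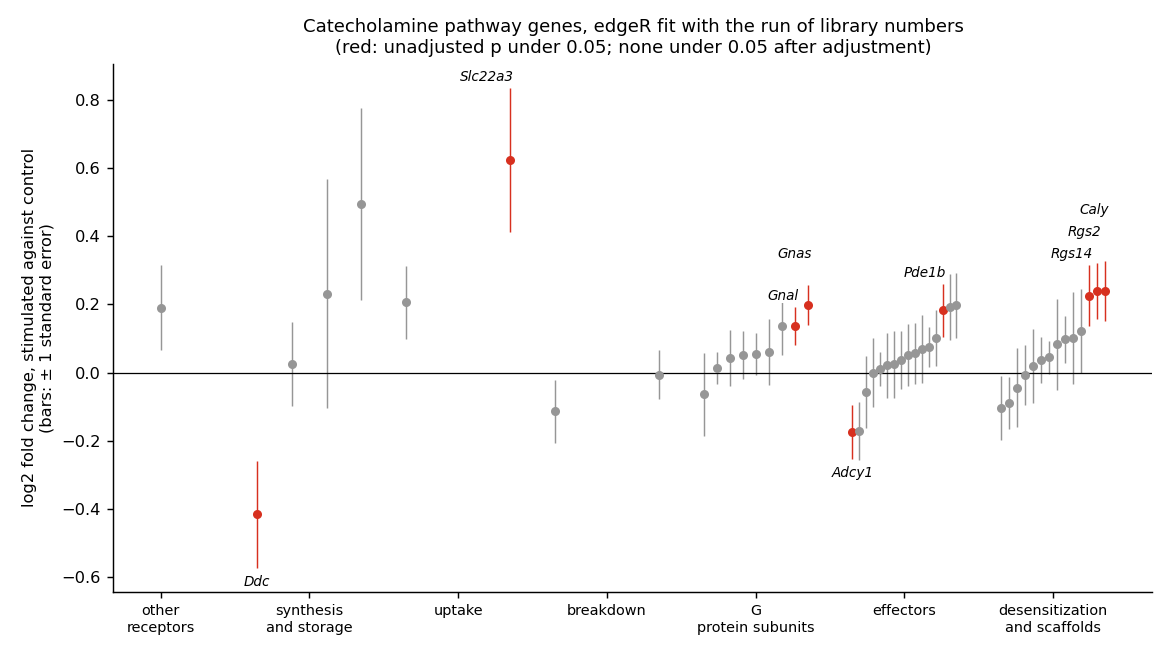
Log2 fold change, stimulated against control, of 48 tested catecholamine pathway genes in the edgeR fit with the run of library numbers, grouped by role, with bars of 1 standard error. Red points are the 9 of these genes at an unadjusted P under 0.05, from Ddc at -0.42 to Slc22a3 at 0.63.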

How the data were processed

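RNA sequencing of bulk ACC from 22 mice was analysed. Per the submitters' processing notes and the study's methods, reads were trimmed with cutadapt 1.10, aligned to mm10 with STAR 2.5.3a, counted with HTSeq 0.6.1p1 on the Ensembl annotation and compared with DESeq2 1.22.1. The authors deposited whole-number counts per gene and mouse, and a normalised signal (those counts divided by their size factors), which was not tested here. Their DESeq2 comparison (log2 fold changes, P values and adjusted P values, with RNA integrity and batch as covariates) was not used. Those covariates are not in the labels. The table held 0 other columns of per-sample values. Libraries were amplified from little RNA without molecular identifiers.

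Genes that reached 10 counts in 10 or more mice (17524 of 37786) were fitted in edgeR 4.0.16 (R 4.3.3) with TMM, glmQLFit and glmQLFTest. Group was the sole term, and P values were adjusted by Benjamini-Hochberg over all of them. The standard error is the log2 fold change over the square root of F. Depth was 24563116 to 36542883 counts in controls and 23090483 to 43668462 in stimulated mice. P values measure the spread between mice. Further fits added the run of library numbers (1 to 11, 12 to 23), its interaction with group, or the replicate number as a block, or used DESeq2 1.42.0, limma 3.58.1 voom, other size factors or other count minimums. The Wald test with the run, the fits with the run that left out each mouse, and the AP-1 motif were added after seeing the data. Exact permutation tests exchanged labels within runs on log2 CPM (prior count 2). RPKM used the union of exons in GENCODE M21 (GRCm38), which also gave coordinates. The fits were checked on simulated counts.

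The members and gene lists were chosen with earlier results of these data known. Named genes were the 10 members, pathway genes at an unadjusted P under 0.05 in the fit with group or with run, and the 3 genes most like each member. Some genes taken in by this rule or by the lists are counted but not reported here. Summaries used Python 3.11.15.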

Additional observations from a re-analysis of the deposited data

Results flagged for a closer look

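Drd4 in stimulated mouse 2 stood apart from the other 9 stimulated mice when both runs of library numbers were pooled. It was at 1.98 CPM (85 counts), and the gap to the next mouse, at 1.09 CPM, took up 0.547 of the range of the 10 stimulated mice, above Dixon's 95% critical value for this number of samples. By chance about 1 in 20 groups would be set apart in this way, and the stimulated values of 10 genes were examined. The 12 controls are too many for this rule. Without this mouse the log2 fold change of Drd4 was 0.26 with group only and 0.60 in the fit that also held the run of library numbers, beside 0.51 and 0.72 with it. No other member had such a library among the stimulated mice.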

How the results depend on the processing

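0 of the 10 receptor genes had an adjusted P under 0.05 under any of the alternatives. The number at an unadjusted P under 0.05, 1 with group only, was 2 with the run of library numbers, with the replicate block and the run together, within library numbers 12 to 23 and in the DESeq2 Wald test with the run, and 3 with limma voom (Adra1b, Adra1d and Adrb1). It was 1 to 2 when single mice were left out of the fit with group (2 without control 5) and 2 to 3 when they were left out of the fit with the run. The number of members lower in stimulated mice, 1 with group only, was 3 with the replicate block, 2 with the block and the run and within either run, 0 with limma voom, and 0 to 2 with single mice left out. Over all genes the number at an unadjusted P under 0.05 was 632 with group only, 2015 with the run, 1292 with the block, 1983 with both, 974 within library numbers 1 to 11, 2165 within 12 to 23, 1857 with limma voom, 2371 with no count minimum and 2184 in the Wald test with the run. At an adjusted P there were 3 genes in the Wald test, 33 in the Wald test with the run, and 0 to 1 with single mice left out (1 without control 9). For the pathway list the number at an unadjusted P under 0.05, 2 with group only, was 10 with the run, with the block and run, with limma voom and in the Wald test with the run, 5 with the block, 4 within library numbers 1 to 11, 9 within 12 to 23, and 2 to 4 with single mice left out of the fit with group (4 without controls 6, 7 or 8), beside 8 (without control 11) to 14 (without stimulated mouse 1) in the fit with the run. Its number of lower genes, 10 with group only, was 17 with the block and run, 27 within library numbers 1 to 11, and 6 to 14 with single mice left out of the fit with group (6 without control 11). The cause of these changes was not tested.

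Adra1b was higher in stimulated mice in every fit, and signs turned for 5 other genes. With the replicate block Drd2 was at -0.0054 (-0.0081 with the run) and Adra2c at -0.015. Adra1a was at 0.040 with limma voom, Adra1d at -0.0016 within library numbers 1 to 11 and Adra2a at -0.16 within 12 to 23. With single mice left out, Drd2 ranged from -0.021 to 0.31 with group only and from -0.019 to 0.35 with the run (both lowest without stimulated mouse 5), Adra1a from -0.053 to 0.048 and Adra2c from -0.022 to 0.060. In controls alone the difference between runs was -0.030 for Drd5 and 0.19 for Adra1b. Replicate numbers come from the labels but mark different animals. Deviations of same-numbered mice had a mean correlation of 0.308, beside -0.0275 for other pairs, and 8 of 10 pairs were above 0.1. Of the pairs, 8 lay within a run. Adra1b was at 0.23 (P = 0.00628) with the block.

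Drd4, Drd2 and Drd5 rest on 2 to 85, 16 to 166 and 14 to 80 counts per mouse, which limits their precision. Drd4 was not tested when 10 counts were required in every mouse.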
